A study of Mus musculus with 16 samples.

Results

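The interferon regulatory factors (IRFs) are a family of DNA-binding proteins named for their part in the interferon response, and 8 of its genes (Irf1, Irf2, Irf3, Irf4, Irf5, Irf7, Irf8 and Irf9) are described here. Every noncontrol probe that the scanner files name for one of these genes was taken, whatever its value, which gave 8 of 24332 gene symbols and 9 of the 39429 probes on the array. Irf1 had 2 probes and the other 7 genes had 1. All 9 probes were well above background on at least 3 arrays of some group and were tested, among 27433 tested probes in all.

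IRF3, IRF5 and IRF7 are activated by kinases downstream of pattern recognition receptors and turn on interferon genes, and IRF7 is itself induced by interferon. IRF9 joins STAT proteins in the complex that carries the type I interferon signal to DNA, IRF1 is induced by interferons, and IRF2 binds similar sites. IRF4 and IRF8 pair with PU.1 or BATF proteins and direct dendritic cell and monocyte development, IRF8 being required for type 1 conventional dendritic cells (cDC1s).

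Both progenitors came from bone marrow (BM) of female C57/Bl6 mice. Macrophage and dendritic cell progenitors (MDPs) give rise to monocytes and dendritic cells, and common dendritic cell progenitors (CDPs) are a later, more restricted stage. Tumor-bearing mice carried an orthotopic mammary tumor of 1.5 cm grown from PyMT-B6, a single cell line derived from the MMTV-PyMT breast cancer model, and the tumor-free controls were matched for age. Cells were sorted after lineage depletion, each array held RNA of a pair of mice, and each of the 4 groups (MDP or CDP, tumor-free or tumor-bearing) had 4 arrays, numbered 2 to 5.

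The red signal of each array was scaled to that array's 75th percentile, so a level of 0 is the 75th percentile, and all levels and differences below are on the log2 scale. Between 58.8% and 71.5% of probes were well above background per array. The arrays lay on 4 slides, each with arrays of at least 3 groups, and the 7 defining genes of MDPs and CDPs (Flt3, Csf1r, Kit, Cx3cr1, Csf2ra, Csf2rb and Cd93) were above background in every group. Kit was lower in CDPs than in MDPs, by -2.59 without and -3.81 with tumor. Levels of different probes cannot be set against each other, so only the same probe was compared between groups. In sorted populations, fewer cells of a type and less RNA per cell cannot be told apart. P-values measure the spread between these arrays.

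The sequence just before the start site is shown for the IRF genes in which an interferon-linked motif was found, and for Irf7, which had the largest differences with tumor. The sequences are the 250 bases before a RefSeq start (build GRCm38.p6, 5′ to 3′ along the gene), with capitals on motif matches. Irf1, Irf8 and Irf9 have another annotated start, and for Irf1 and Irf8 only the window with a match is shown. The motifs searched on both strands were the STAT site TTCNNNGAA, an IRF site (GAAA, 2 bases of any kind and GAAA again) and a joint ETS and IRF site (GGAA, 2 bases of any kind and GAAA). They occurred in 7.02%, 2.98% and 2.3% of the 32851 such windows in the annotation, and in 3, 1 and 1 of the 11 windows of the 8 IRF genes.
Irf1 (chr11:53769764-53770013, plus strand): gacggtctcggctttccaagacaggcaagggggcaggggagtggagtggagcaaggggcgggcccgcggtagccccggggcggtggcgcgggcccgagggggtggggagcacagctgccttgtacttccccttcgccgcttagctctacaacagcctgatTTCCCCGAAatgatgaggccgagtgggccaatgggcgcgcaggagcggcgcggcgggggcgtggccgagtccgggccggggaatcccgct
Irf2 (chr8:46739495-46739744, plus strand): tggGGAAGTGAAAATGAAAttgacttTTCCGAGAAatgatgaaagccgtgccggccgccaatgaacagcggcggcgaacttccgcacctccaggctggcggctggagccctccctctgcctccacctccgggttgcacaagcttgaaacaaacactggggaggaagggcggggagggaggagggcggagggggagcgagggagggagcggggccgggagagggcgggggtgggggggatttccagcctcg
Irf8 (chr8:120736108-120736357, plus strand): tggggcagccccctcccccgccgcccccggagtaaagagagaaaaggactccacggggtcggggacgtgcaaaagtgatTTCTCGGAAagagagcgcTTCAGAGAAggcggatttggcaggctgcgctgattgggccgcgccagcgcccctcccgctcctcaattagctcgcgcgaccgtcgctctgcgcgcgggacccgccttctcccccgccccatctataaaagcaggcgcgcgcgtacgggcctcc
Irf7 (chr7:141266425-141266674, minus strand): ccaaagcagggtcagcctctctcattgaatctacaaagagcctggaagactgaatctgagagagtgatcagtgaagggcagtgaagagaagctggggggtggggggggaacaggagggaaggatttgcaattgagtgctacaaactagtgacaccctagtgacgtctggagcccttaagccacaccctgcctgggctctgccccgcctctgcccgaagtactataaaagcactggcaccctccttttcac
The window of Irf1 shown held 1 STAT site, 90 bases before the start, and that of Irf8 held 2, at 171 and 153 bases. The windows of the other starts of Irf1 (chr11:53770223-53770472) and Irf8 (chr8:120738389-120738638) held no match. In Irf2, overlapping IRF and ETS-IRF matches at 241 and 247 bases were followed by a STAT site at 224 bases. The Irf7 window held none of these letter patterns, nor did the windows of Irf3, Irf4, Irf5 and Irf9.

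The array probes themselves are given on build mm9. They lie at chr11:53590746-53590805 and chr11:53591817-53591876 (Irf1), chr8:47932486-47932545 (Irf2), chr7:52257700-52257759 (Irf3), chr13:30858532-30858591 (Irf4), chr6:29486901-29486960 (Irf5), chr8:123280324-123280383 (Irf8) and chr14:56228806-56228865 (Irf9), and the files give no position for the Irf7 probe. All 9 probes matched the RefSeq gene of the same name by transcript, and exon or UTR positions were not determined because no mm9 annotation was used here.

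The first question was how the family differed between the successive progenitor stages. Of the 8 genes, 3 were higher in CDPs than in MDPs, namely Irf4, Irf5 and Irf7, and these 3 passed the test whether or not the mice bore a tumor. The test was limma over all tested probes, at an FDR below 0.05 and a fold above 1.5. It called 6.07% of all probes without tumor and 7.24% with tumor. No IRF gene was called lower in CDPs. Irf4 passed the brightness limit for testing only through the CDP groups (4 of 4 arrays in each, against 2 and 0 in MDPs). Its higher value in CDPs was therefore favoured by that selection. Irf5 and Irf7 also passed the limit in tumor-free MDPs.

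**Figure D1:**
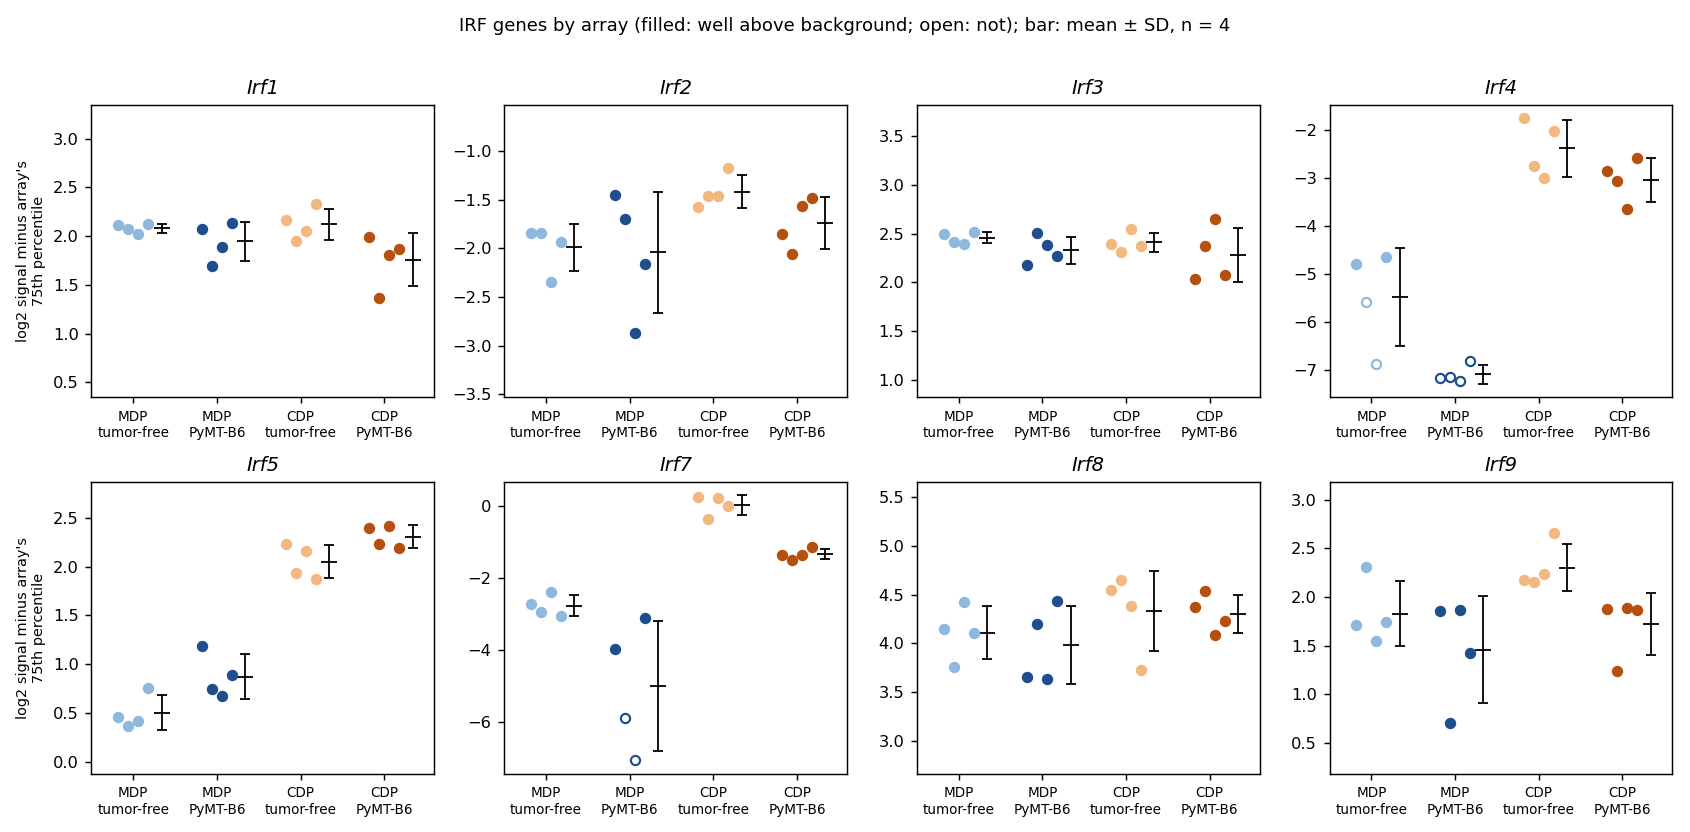
Level of each IRF gene on every array (y axis, log2 signal minus the array's 75th percentile) in the 4 groups (x axis), with the mean and SD of 4 arrays as a bar and open points for arrays where the probe was not well above background. Irf5 separates CDPs from MDPs in both conditions, the 4 groups of Irf7 do not overlap, and the groups of Irf8 all overlap.

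Irf5 encodes the factor that acts downstream of Toll-like receptors and drives inflammatory cytokines, and it gave the tightest difference between the stages. In tumor-free mice its level was 0.46, 0.36, 0.42 and 0.76 in MDPs and 2.23, 1.94, 2.16 and 1.87 in CDPs. In tumor-bearing mice it was 1.19, 0.74, 0.67 and 0.89 in MDPs and 2.4, 2.23, 2.42 and 2.19 in CDPs. Every CDP array therefore lay above every MDP array. Irf5 was 2.93-fold higher in CDPs of tumor-free mice (log2 difference 1.55, SE 0.15, limma adjusted p = 3.59e-05) and 2.71-fold higher in CDPs of tumor-bearing mice (1.44, adjusted p = 6.09e-05). Within the 4 slides the tumor-free difference was 1.51, 1.7, 1.48 and 1.52.

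Irf7, often called the master factor of type I interferon production and highly expressed in plasmacytoid dendritic cells (pDCs), separated all 4 groups. In MDPs it was -2.72, -2.96, -2.4 and -3.05 without tumor and -3.98, -5.89, -7.07 and -3.11 with tumor, where the 2 lowest values were not well above background. In CDPs it was 0.25, -0.37, 0.22 and -0.01 without tumor and -1.36, -1.5, -1.38 and -1.16 with tumor. The order of the groups was tumor-bearing MDPs, tumor-free MDPs, tumor-bearing CDPs and tumor-free CDPs, with no overlap between neighbours, although the gap between the MDP groups was only that between -3.11 and -3.05. CDPs of tumor-free mice had 6.98-fold more Irf7 signal than MDPs (2.80, SE 0.61, limma adjusted p = 0.0131), and in tumor-bearing mice the measured difference was 3.66 (adjusted p = 0.00246). The second difference rests on an MDP group measured above background on only 2 of its 4 arrays, and its call was lost when only the groups compared entered the fit (adjusted p = 0.0512). The difference was present on each slide that held both stages, at 2.95, 2.94, 3.3 and 2.03 in tumor-free mice and at 4.51 and 1.95 in tumor-bearing mice.

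Irf4, a lineage factor of type 2 conventional dendritic cells, plasma cells and activated lymphocytes, was near or below the detection limit in MDPs. In tumor-free MDPs its level was -4.81 and -4.66 on the arrays above background and -5.59 and -6.89 on those that were not. In tumor-bearing MDPs the probe was not well above background on any array. In CDPs it was measured on every array, at -1.76, -2.75, -3.01 and -2.03 without tumor and -2.87, -3.08, -3.65 and -2.6 with tumor. Again no CDP array overlapped an MDP array. The measured difference in tumor-free mice was 8.56-fold (3.10, SE 0.43, limma adjusted p = 0.000622), against an MDP group with 2 of 4 arrays above background, so that its size is uncertain. In tumor-bearing mice the measured difference was 4.04 (limma adjusted p = 6.17e-05), against an MDP group with no array above background. With a bound in place of those MDP values, the CDP mean was at least 4.42-fold higher under the main scaling. No p-value was computed for the bound. That bound sets the CDP mean of -3.05 against a mean of -5.2 for the dimmest signals counted as above background on the MDP arrays, which measured -7.1 themselves. With normexp background correction, which compresses dim signals, both Irf4 differences were smaller and their calls were lost (1.18, adjusted p = 0.0697, and 1.21, adjusted p = 0.0606).

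The exact two-sided permutation test of each of these 3 genes gave p = 0.0286 in both conditions, which is the smallest that the 70 relabelings of 4 against 4 arrays allow. These genes had already been called by limma on the same arrays, so this test is not separate support. Irf2 in tumor-free mice, which was not called (limma adjusted p = 0.271), gave the same exact permutation p = 0.0286. For Irf4, most of the MDP values that entered the test were not above background.

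The other 5 genes were not called between the stages. Irf2, which binds IRF sites and can oppose IRF1, was between -2.35 and -1.84 in tumor-free MDPs and between -1.58 and -1.18 in tumor-free CDPs. These groups did not overlap (difference 0.57, SE 0.26, limma adjusted p = 0.271), but in tumor-bearing mice they did (0.31). Irf9 differed by 0.48 and 0.25, Irf1 by 0.04 and -0.19, and Irf3 by -0.05 in both conditions. Irf8, which is required from the MDP stage on for cDC1s, differed by 0.22 (95% interval -0.29 to 0.73) and 0.33.

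**Figure D2:**
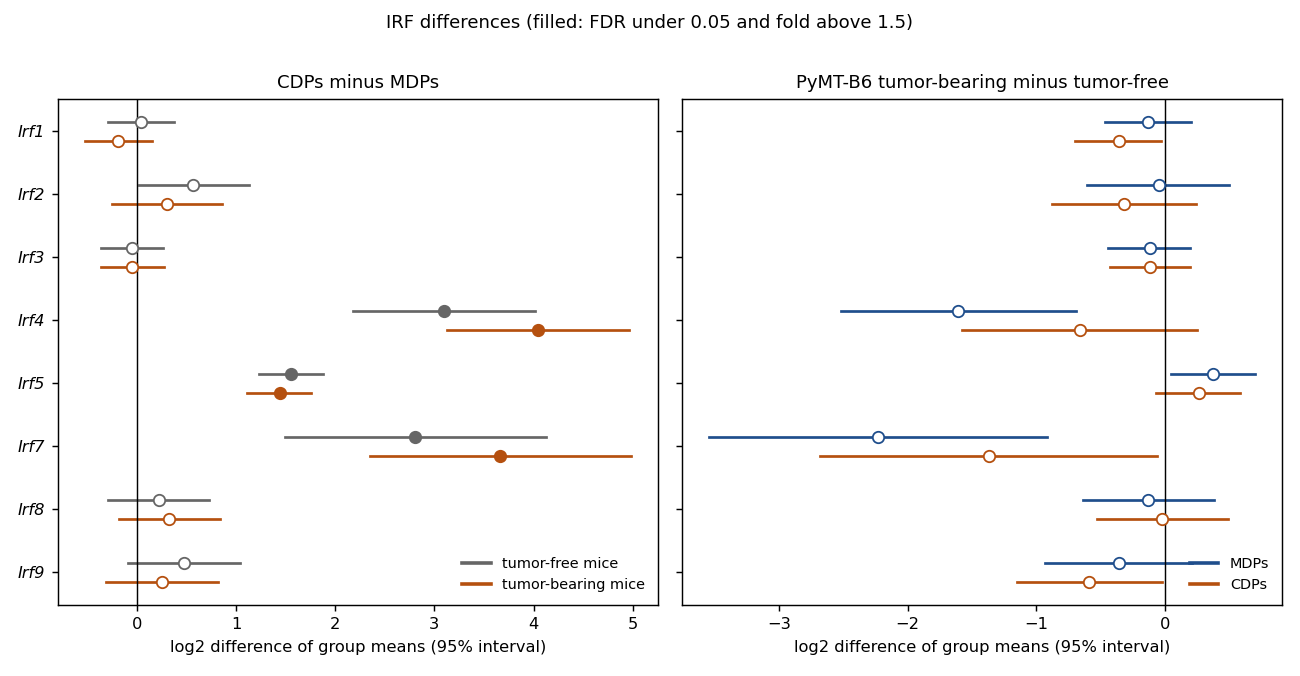
Log2 difference of group means (x axis) with its 95% interval for each IRF gene (y axis), CDPs minus MDPs on the left and tumor-bearing minus tumor-free mice on the right, with filled points for calls at an FDR below 0.05 and a fold above 1.5. Irf4, Irf5 and Irf7 are called between stages, and no gene is called with tumor. The left panel's Irf4 value in tumor-bearing mice is the measured one, and its MDP side was below background.

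The next question was what changed with a PyMT-B6 tumor. None of the 8 genes passed the test in CDPs, where 1.79% of all probes did, or in MDPs, where 0.062% did. At an unadjusted limma p below 0.05 there were 3 genes in each, against 13.7% of all probes in CDPs and 10.4% in MDPs. The methods' t-test, unadjusted and with the fold threshold, named 2 genes in each (Irf7 and Irf9 in CDPs, Irf4 and Irf7 in MDPs). That rule, without the FDR limit that the methods also set for the arrays, named 2072 of the 27433 probes in CDPs and 1016 in MDPs. The differences were below 0 for 7 of 8 genes in CDPs (median -0.34, all tested probes 0.08) and for 7 of 8 in MDPs (median -0.13, all tested probes -0.11). Scaling by quantiles moved the median of all probes in MDPs from -0.11 to 0 and turned the sign of Irf2 there.

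Irf7 had the lowest difference of the family in both progenitors. All 4 tumor-bearing CDP arrays (-1.5 to -1.16) were below all 4 tumor-free arrays (-0.37 to 0.25), a 2.59-fold difference (-1.37, SE 0.61, 95% interval -2.68 to -0.06). The limma p was 0.0416 before and 0.335 after adjustment over all probes, and the exact permutation p was 0.0286. The tumor-bearing arrays themselves were close together, with an SD of 0.14, whereas the SE comes from a spread estimated over all 4 groups, including the MDPs with tumor, whose SD was 1.8. When only the CDP arrays entered the fit, Irf7 was called (adjusted p = 0.0432), and likewise with normexp background correction (-1.18, adjusted p = 0.0284). Within slides 2, 3 and 4 the difference was -1.6, -1.41 and -1.06.

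In MDPs the measured Irf7 difference was -2.23 (SE 0.61, 95% interval -3.54 to -0.92). The limma p was 0.00263 before and 0.265 after adjustment. The probe was not well above background on 2 of the 4 tumor-bearing arrays, replicates 3 and 4, which hold the lowest values, so that the size of this difference is uncertain and no fold is given. The other tumor-bearing arrays, at -3.98 and -3.11, were nearer to the tumor-free range. Within slides 1, 2 and 3 the difference was -2.56, -3.17 and -0.06. Without replicate 5 of the tumor-bearing MDPs, the value of -3.11, Irf7 was called (-2.87, adjusted p = 0.0464).

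Irf9, the DNA-binding subunit of the interferon-stimulated gene factor, was 2.17, 2.15, 2.24 and 2.66 in CDPs of tumor-free mice and 1.88, 1.24, 1.89 and 1.87 in CDPs of tumor-bearing mice. These groups did not overlap, and the difference was 1.5-fold (-0.59, SE 0.26, 95% interval -1.15 to -0.02, limma adjusted p = 0.343, exact permutation p = 0.0286). Within slides 2, 3 and 4 it was -0.35, -0.3 and -0.6. In MDPs the groups overlapped, at 1.71, 2.31, 1.55 and 1.74 without and 1.86, 0.71, 1.87 and 1.42 with tumor (-0.36, adjusted p = 0.607).

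Irf1, the factor induced by interferon gamma, was between 1.95 and 2.33 in CDPs of tumor-free mice and between 1.37 and 1.99 in CDPs of tumor-bearing mice (-0.36, SE 0.16, limma adjusted p = 0.31). Replicate 3 of the tumor-bearing CDPs held the lowest value, as it did for Irf9. The second Irf1 probe, 1071 bases farther along chromosome 11, differed by -0.60 (adjusted p = 0.333) in CDPs and by -0.59 in MDPs (limma adjusted p = 0.475), against -0.13 in MDPs for the brighter probe. Irf2 differed by -0.32 in CDPs and by -0.05 in MDPs.

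Of the 8 genes, only Irf5 was above 0 in both progenitors, by 0.37 in MDPs (limma adjusted p = 0.447) and by 0.26 in CDPs (adjusted p = 0.518). Its MDP groups overlapped, with 0.76 on the highest tumor-free array and 0.67 on the lowest tumor-bearing one. Irf3, the constitutive partner of IRF7 in interferon induction, was between 2.04 and 2.65 on all 16 arrays and differed by -0.12 in each progenitor (95% interval in CDPs -0.43 to 0.19).

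Irf8 was high on every array, between 3.63 and 4.65. In tumor-free mice it was 4.15, 3.76, 4.42 and 4.1 in MDPs and 4.55, 4.65, 4.38 and 3.73 in CDPs. With tumor it was 3.65, 4.2, 3.63 and 4.43 in MDPs and 4.37, 4.54, 4.08 and 4.23 in CDPs. All 4 groups overlapped. The tumor difference was -0.13 in MDPs (95% interval -0.64 to 0.38, limma adjusted p = 0.813) and -0.02 in CDPs (-0.53 to 0.49, adjusted p = 0.979). As ratios of tumor-bearing to tumor-free signal these intervals run from 0.642 to 1.30 and from 0.691 to 1.40.

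The Irf8 values followed the slide more than the group. Slides accounted for 93% of the spread of Irf8 within groups, against a median of 64.3% over all tested probes, and the slide means were 3.69, 4.2, 4.32 and 4.5. The share of probes well above background followed the same order of slides, with medians of 62.1%, 65%, 68% and 71.3%, and its part in the Irf8 values was not tested. Slide 1 held 2 tumor-bearing MDP arrays, 1 tumor-free MDP array and 1 tumor-free CDP array, and slide 4 held no tumor-bearing MDP array. Fitting the slide as a block gave a CDP difference of -0.24 (SE 0.1, limma adjusted p = 0.167), and within slides 2, 3 and 4 it was -0.3, -0.32 and -0.2. In MDPs the blocked value turned to 0.08 (adjusted p = 0.66), with -0.11, 0.05 and 0.33 within slides 1, 2 and 3. No setting tried called a tumor difference for Irf8.

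**Figure D3:**
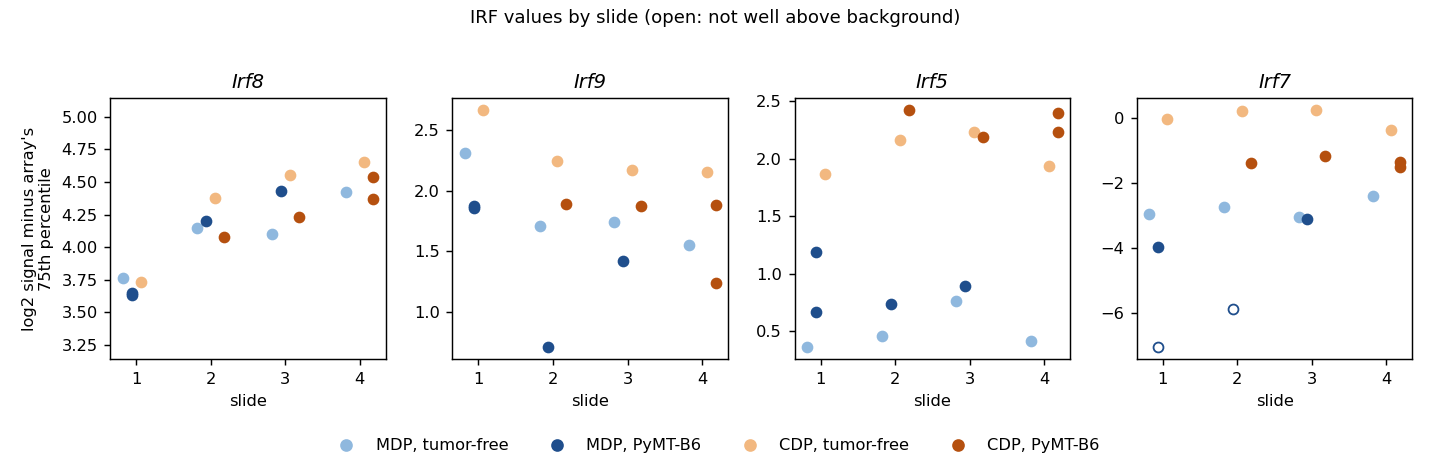
Level of Irf8, Irf9, Irf5 and Irf7 (y axis, log2 signal minus the array's 75th percentile) against the slide that carried the array (x axis), coloured by group, with open points for arrays where the probe was not well above background. Irf8 goes from a mean of 3.69 on slide 1 to 4.5 on slide 4, while for Irf5 and Irf7 the CDP arrays lie above the MDP arrays on every slide.

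Irf4 differed by -0.66 in CDPs (limma adjusted p = 0.574) and by -1.61 in MDPs (adjusted p = 0.255), where no fold is given, because no array with tumor measured the probe above background and the tumor-free mean of -5.49 lay below the bound of -5.2 for undetected signals.

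Whether tumor acted differently on MDPs and CDPs was tested directly. None of the 8 genes passed, by an adjusted or an unadjusted p, while 0.0146% of all probes passed after adjustment and 4.05% before. The differences of the tumor changes, CDPs minus MDPs, ran from -0.27 for Irf2 to 0.95 for Irf4 (limma adjusted p = 0.749), with 0.86 for Irf7 (adjusted p = 0.751) and 0.11 for Irf8 (adjusted p = 0.906). The median SE of this contrast was 0.433 over all probes, so only large differences could be detected.

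The genes around the IRFs were read from 5 lists of their receptors, activators, partners and targets. Among the interferon-stimulated genes, the targets of IRF7 and IRF9, 30 of 31 were tested. With tumor, 26 of 30 had differences below 0 in CDPs (median -0.63) and 27 of 30 in MDPs (median -0.65), against medians of 0.09 and -0.14 over the 21911 tested genes. The median of the list stayed below 0 in both progenitors under every scaling, background correction, block and omission of an array that was tried. In CDPs 3 genes were called lower, none higher, and none was called in MDPs, against 1.79% and 0.062% of all probes. At an unadjusted p below 0.05 there were 15 of 30 in CDPs and 13 of 30 in MDPs, against 13.7% and 10.4% of all probes. The called genes were Usp18, which removes ISG15 and damps interferon receptor signalling (-1.65, limma adjusted p = 0.0195), Bst2, a membrane tether of virions that also marks pDCs (-0.69, adjusted p = 0.038), and Irgm1, an interferon-induced GTPase (-0.88, adjusted p = 0.0485). Only 1 of the 2 Irgm1 probes was called. The count in CDPs was small and moved with the arrays, from 3 to 0 without replicate 2 or without replicate 4 of the tumor-free CDPs, to 1 without replicate 3 or replicate 4 of the tumor-bearing CDPs, to 0 with only the CDP arrays in the fit, and to 7 with the slide as a block.

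Usp18 was 0.91, 0.76, 1.39 and 0.62 in tumor-free CDPs and -0.32, -1.72, -0.22 and -0.66 in tumor-bearing CDPs, without overlap. It was also higher in CDPs than in MDPs, by 1.61 without and 1.2 with tumor. Between the stages, Bst2 (0.8) and Ifit3 (4.18, with tumor-free MDPs above background on 1 of 4 arrays) were called higher in tumor-free CDPs. Mx1 was called higher in tumor-bearing CDPs (2.83). Its size is uncertain, because replicate 3 of the tumor-bearing MDPs, at -6.69, was not well above background. The other arrays of that group were at -3.11, -4.03 and -3.54. Ifit3 entered the test only through tumor-free CDPs, which favours a higher value there. Gbp3, a guanylate-binding protein, was called lower in CDPs in both conditions, by -0.77 and -0.61.

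Stat2, which IRF9 binds in that complex, was not called with tumor, although it was in CDPs with normexp (-1.11), with the filter on all 16 arrays (-1.13) and with the slide as a block (-0.87). In CDPs it was 0.06, -0.35, 0.14 and 0.92 without tumor and -1.04, -1.21, -0.8 and -0.71 with tumor, and no arrays overlapped (-1.13, SE 0.28, limma adjusted p = 0.061). In MDPs the difference was -0.33 (adjusted p = 0.65). Of the 7 receptor chains and Janus kinases, none was called with tumor (3 had an unadjusted p below 0.05 in CDPs and 0 in MDPs), and Jak2 was higher in CDPs than in MDPs by 1.09 and 0.73 (adjusted p = 0.00129 and 0.0169).

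Among 15 tested sensors, adaptors and kinases upstream of IRF3, IRF5 and IRF7, 1 was called with tumor, in CDPs, where 1.79% of all probes were, and none in MDPs (2 at an unadjusted p below 0.05). Ikbke, the inducible kinase that phosphorylates IRF3 and IRF7, was higher in CDPs of tumor-bearing mice (0.82, limma adjusted p = 0.0161). The count fell to 0 without replicate 3 of the tumor-free CDPs, without replicate 4 of the tumor-bearing CDPs and with only the CDP arrays in the fit, and was 3 with the slide as a block. Tumor-free CDPs in turn were lower than tumor-free MDPs for this gene (-0.76, adjusted p = 0.00748), and Tlr9, the endosomal DNA sensor, was higher in CDPs than in MDPs of tumor-bearing mice (1.09, adjusted p = 0.0413).

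Of 14 DNA-binding partners and co-regulators, 2 were called with tumor in CDPs and 0 in MDPs (3 in MDPs at an unadjusted p below 0.05), against 1.79% and 0.062% of all probes. Spib, the PU.1 relative that partners IRFs in pDCs and B cells, was lower (-3.13, limma adjusted p = 0.021). It was above background on all 4 tumor-free CDP arrays but on 2 of 4 tumor-bearing ones, and on no array of tumor-bearing MDPs. Spib entered the test only through tumor-free CDPs, so a lower value with tumor was favoured by that selection. Irf2bpl, named for its likeness to an IRF2-binding protein, was higher (1.45, adjusted p = 0.0206). Both calls were lost without replicate 5 of the tumor-free CDPs, without replicate 3 or replicate 4 of the tumor-bearing CDPs, and with only the CDP arrays in the fit, and 1 of them without replicate 2 or replicate 3 of the tumor-free CDPs. The PU.1 gene Spi1, the main partner of IRF8 and IRF4, was not called (0.22 in CDPs, 0.16 in MDPs), nor were Batf (0.78, adjusted p = 0.132, and 0.66) and Batf3 (-0.46, adjusted p = 0.377, and 0.21). Of 14 antigen presentation genes, Pml was called lower in CDPs (-1.16, adjusted p = 0.031, on 1 of 2 probes) and none in MDPs (1 at an unadjusted p below 0.05). The Pml call was lost without any 1 of 5 of the 8 CDP arrays (replicates 3, 4 and 5 of the tumor-free and 3 and 4 of the tumor-bearing mice) and with only the CDP arrays in the fit.

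**Figure D4:**
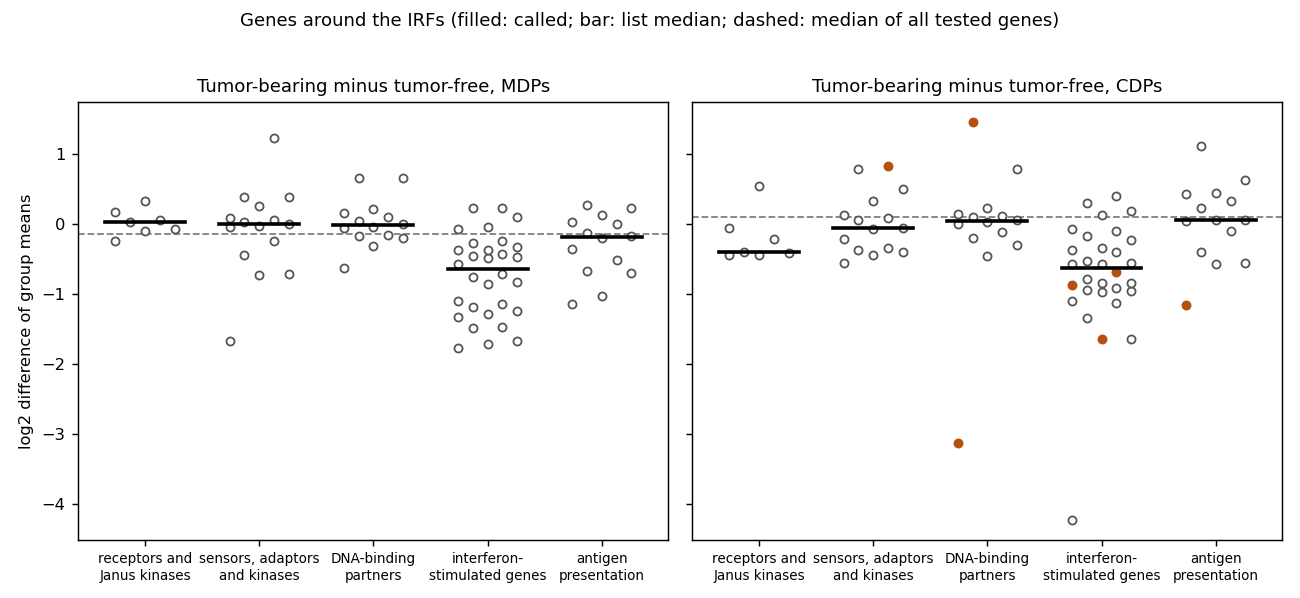
Log2 difference of tumor-bearing minus tumor-free mice (y axis) for each tested gene of 5 lists around the IRFs (x axis), in MDPs and CDPs, with filled points for called genes, a bar at the list's median and a dashed line at the median of all tested genes. The interferon-stimulated genes lie mostly below 0, with a median of -0.63 in CDPs and -0.65 in MDPs.

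Some markers of other cells also differed with tumor. Of 10 pDC markers, 3 were called lower in CDPs of tumor-bearing mice (Bst2, Runx2 and Spib), where 1.79% of all probes were called. The same 3 were called higher in tumor-free CDPs than in tumor-free MDPs (6.07% of all probes). Of these, Spib was tested only because of tumor-free CDPs. With tumor, 7 of the 10 pDC markers were below 0 in CDPs (median -0.54). The summed level of a list adds signals on the linear scale, so its brightest genes weigh most. For the pDC list in CDPs these sums overlapped, at 21.9 to 41.9 with and 18 to 34.2 without tumor. Of 14 neutrophil markers, 3 were called higher in CDPs with tumor (Elane, Lcn2 and Mmp8). The summed level of the 14 in CDPs was 94.5 to 138 with and 50.9 to 74.2 without tumor. In MDPs these sums overlapped, at 99 to 166 with and 90.1 to 135 without tumor. Of 10 monocyte and macrophage markers, Vcan was called higher in CDPs, and the sum there was 48.9 to 57.3 with and 36.9 to 49.4 without tumor. In MDPs that sum was 25.7 to 32 with and 25.5 to 32.4 without tumor. Among the other markers, Kit was called lower in CDPs with tumor (-1.34, limma adjusted p = 0.00441). Klrd1, an NK cell receptor, was also called lower there (-4.56, limma adjusted p = 0.00821, above background on 1 of 4 arrays with tumor). Most of its list went the other way, as 6 of 8 tested T and NK cell genes were above 0 in CDPs (median 0.33). In MDPs 7 of these 8 were below 0 (median -0.68) and none was called. In MDPs, where 0.062% of all probes were called, the markers called with tumor were Lcn2 (2.17, limma adjusted p = 0.0493) and Cd209a, a lectin of conventional dendritic cells. Cd209a was lower in MDPs (-3.55, limma adjusted p = 0.0114, above background on no array with tumor) and in CDPs (-3.25, adjusted p = 0.00261). The 7 tested erythroid markers were all below 0 in MDPs (median -0.91) and 6 of 7 in CDPs (median -0.96), with none called. At an unadjusted limma p below 0.05 there were 3 in MDPs and 4 in CDPs, against 10.4% and 13.7% of all probes. The B cell gene Ms4a1 and the epithelial gene Cdh1 were not above background on any array, but other genes of their lists were. By group, 6 to 7 of 9 B cell genes were above background on at least 3 arrays. The same held for 2 to 3 of 6 mammary tumor cell genes, and no gene of either list was called with tumor. The part of other cells in the Irf7, Irf9 and target gene values was not tested.

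Among the 16 arrays, after removal of slide means, the genes most like Irf7 in pattern were Rin2, Ncoa3 and Rnase6 (Pearson r 0.98, 0.97 and 0.97). Those most like Irf9 were Ifi27l2a, Arl4c and Usp18 (0.97, 0.96 and 0.96), and those most like Irf5 were Asf1b, Gpr35 and Pirb (0.99, 0.98 and 0.98). For Irf8 they were 6820426E19Rik, Six3 and Tnfaip8 (0.92, 0.88 and 0.88), and for Irf4 Fam117b, Plxnb2 and Pfkfb4 (0.96 each). These coefficients describe 16 arrays that share 4 groups, they were the highest of 13382 candidates at most, and only 4 of the 24 genes found for the 8 IRFs were found again without removal of slide means.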

How the data were processed

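MDPs and CDPs were profiled on 16 one-color Agilent mouse arrays, with Cy5-labeled RNA in 4 groups of 4 taken from the sample titles. Per the file headers, the deposited scanner files come from Feature Extraction 11.5.1.1 and hold for each spot a processed red signal, an intensity on a linear scale from which the software had subtracted background. A second file that the authors deposited holds log2 values for 26793 probes, which matched quantile-normalized signals of the same arrays and served as an alternative. The submitters' processing notes name limma.

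Control spots (1377 of 44397) and outlier spots were left out, spots of a probe were averaged, and log2 signals were set relative to the 75th percentile of each array. Probes well above background on at least 3 arrays of a group were tested with limma 3.58.1 (R 4.3.3) in 1 fit of 4 group means, with Benjamini-Hochberg adjustment over 27433 probes, and called at an FDR below 0.05 and a fold above 1.5. Where a gene had several probes, that with the highest mean stood for it. Where a probe was not above background on any array of a group, a bound was given instead of a fold. Single genes were also tested by exact permutation of 70 relabelings. The code was tested on simulated data. Alternatives were normexp background correction, quantile and median scaling, the deposited log2 values, other filters, slide or replicate number as a block, fits of the compared groups alone, the methods' t-test and the omission of each array, and for the gene lists these were added after seeing the data. All probes of the 8 Irf genes are named, genes of the lists are named where called or where they are direct partners of IRFs, and like genes are the 3 with the highest r. Some genes are not reported here. The members and lists were chosen with earlier results of these data known. The number of arrays limits the precision.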

Additional observations from a re-analysis of the deposited data

Results flagged for a closer look

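In 36 checks of the 9 probes in the 4 groups, 2 had an array far from the other 3, measured as its gap to the nearest array over the range of the group. Chance gives about 1 in 20 such groups. For Irf9, replicate 5 of the tumor-free CDPs was at 2.66 and the others between 2.15 and 2.24 (ratio 0.83, barely past the limit used). Replicate 3 of the tumor-bearing CDPs was at 1.24 for Irf9 and the others between 1.87 and 1.89 (0.973). Both arrays widen the Irf9 difference in CDPs, which was between -0.64 and -0.43 with 1 array left out.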

How the results depend on the processing

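The 3 calls between the stages (Irf4, Irf5 and Irf7) were made in both conditions with each array left out in turn (3 to 3 genes called). With the filter set to all 16 arrays, which leaves Irf4 and Irf7 untested, 1 gene (Irf5) was called in each. With normexp 2 genes were called in each, without Irf4. In tumor-bearing mice 2 were called with only the groups compared, without Irf7, which also lost its call under the adjusted methods' t-test (adjusted p = 0.109). With tumor in CDPs, 1 gene was called with normexp and 1 with only the groups compared (Irf7 in each), beside 392 and 55 of all probes. There were 2 with the methods' t-test, unadjusted, or the unadjusted limma p and fold (Irf7 and Irf9), beside 2072 and 2344 of all probes. In MDPs 2 were called by each unadjusted rule (Irf4 and Irf7), beside 1016 and 1841 of all probes, and 0 to 1 with an array left out.

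Whether replicate numbers paired the arrays could not be decided. Most same-numbered arrays lay on different slides, and slide means were not removed for this check. Deviations of same-numbered tumor-free and tumor-bearing arrays correlated between 0.02 and 0.48 in CDPs and -0.56 and 0.44 in MDPs. Those of same-numbered MDP and CDP arrays correlated between -0.63 and 0.06 without and -0.05 and 0.46 with tumor. In none of these comparisons were all 4 pairs above 0.1. The arrays that correlated best with their own number were 4, 1, 0 and 4 of 8. The replicate block gave 3, 3, 0, 0 and 0 IRF calls and changed none, with 371 probes called in CDPs with tumor instead of 491, and 10 instead of 17 in MDPs. The slide block gave 1251 and 45. With only the groups compared, 55 and 5 probes were called, by the adjusted t-test 3 and 1. With 1 array left out the numbers were 153 to 578 in CDPs (lowest without replicate 4 of the tumor-bearing CDPs) and 1 to 43 in MDPs (lowest without replicate 4 and highest without replicate 5 of the tumor-bearing MDPs). In MDPs there were 6 with normexp, 7 in the deposited values, 11 with the filter on all 16 arrays and 10 with no filter.

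Signs turned only for differences that were not called. Irf1 between stages in tumor-free mice was -0.05 as the mean of its probes. Irf2 in MDPs was 0.2 with quantile scaling and 0.2 in the value table. The difference of the tumor changes turned for Irf3 (-0.02 normexp, -0.06 quantile, -0.01 median scaling, -0.05 value table), Irf7 (-0.03 normexp), Irf8 (-0.06 normexp, -0.08 quantile, -0.08 value table, -0.32 slide block) and Irf9 (0.17 slide block). The slide block also turned Irf8 in MDPs (0.08) and Irf8 between stages in tumor-bearing mice (-0.1). With 1 array left out, signs turned for Irf1 in tumor-free mice (-0.02 to 0.1), Irf2 in MDPs (-0.25 to 0.22), Irf3 between stages with tumor (-0.17 to 0.03) and in the difference (-0.12 to 0.09), Irf8 in the difference (-0.09 to 0.26) and in CDPs (-0.22 to 0.09), and Irf9 between stages with tumor (0 to 0.41). Why these values moved was not tested. Signals not above background limit Irf4 and Irf7 in MDPs.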
